A study of Mus musculus with 6 samples.

Results

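The epidermal growth factor (EGF) receptor family and its ligands were followed in thoracic mammary glands of mice that overexpress luteinizing hormone (LH). Probe sets were taken from the deposited array table where the platform annotation named exactly 1 gene and that gene was among 3 receptors (Egfr, Erbb2, Erbb3) and 6 ligands (Areg, Btc, Ereg, Hbegf, Egf, Tgfa). This gave 12 of the 12488 probe sets of the table, for 7 of the 9 genes. Erbb2 and Areg had 0 such probe sets and were not analysed here.

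Both groups were virgin mice, F1 CF-1/FVB by strain and 16 weeks old, either wild type or LH-overexpressing (transgenic). There were 3 Affymetrix arrays per group, every one carrying RNA that had been pooled from 3 mice, so that 18 mice stand behind 6 arrays. The labels do not name the transgene construct, its promoter or the founder line. The comparison asks which members differ in RNA level between glands of LH-overexpressing and wild type virgin mice.

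Receptors of this family are tyrosine kinases of the cell surface that pair when a ligand binds. Egfr binds Egf, Tgfa, Areg, Btc, Ereg and Hbegf, which are made as membrane-bound precursors and are cut free by metalloproteases of the ADAM family. Erbb3 has little kinase activity of its own, binds neuregulins, and carries docking sites for PI3 kinase that are used when it is paired with Erbb2. In the mammary gland, Areg from hormone-sensing luminal cells acts on Egfr in the stroma during growth of the ducts at puberty, and ErbB signalling takes part in alveolar growth in pregnancy.

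The arrays were close in overall level, as the authors' scaling sets, with medians of 540.6 to 583.5 signal units. Of 7453 probe sets tested, 781 were called higher and 805 lower, so 21.3% changed (limma with Benjamini-Hochberg adjustment, threshold 0.05). Of those calls 49.2% were higher. Differences are those of log2(signal + 80.0), with a positive sign where LH transgenic glands are higher, and the median difference over all tested probe sets was 0.02. When each array was divided instead by the level of its 9 bacterial hybridisation controls, which were brighter on the LH transgenic arrays, that median moved to -0.62 and 3.50% of the calls were higher. Epithelium was present by its markers: 11 of 12 luminal genes were bright enough to be tested (a mean signal of at least 336.0). So were 6 of 8 measured basal and myoepithelial genes, among them Acta2 and Mylk, while the basal keratin genes Krt5 and Krt14 were not.

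A probe set counted as detected where its mean signal over the 6 arrays reached this filter, the 40th percentile of all such means, because detection calls were not used here. By that measure 5 of the 12 probe sets were detected, and they belong to 3 genes: Egfr with 3 probe sets, Erbb3 with 1 and Hbegf with 1. Btc, Ereg, Egf and Tgfa were not detected on any of their probe sets. Of the 5 detected probe sets 1 was called, that of Erbb3, which was higher in LH transgenic glands, and 0 were called lower. With 21.3% of all tested probe sets called (10.5% higher and 10.8% lower), 1 of 5 is a share near the background.

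**Figure D1:**
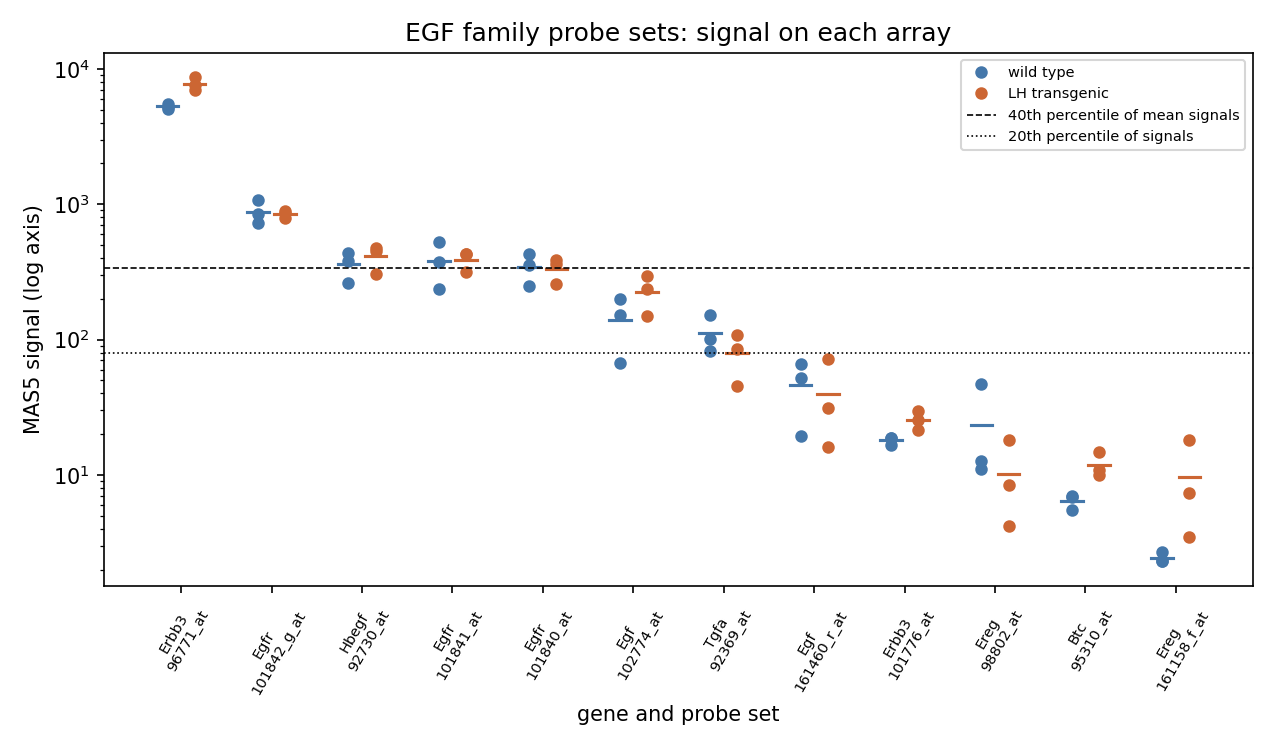
Signal of each of the 12 probe sets on each array, on a log axis, ordered by mean signal; points are arrays and short bars are group means. The dashed line is the detection limit of 336.0 and the dotted line the 20th percentile of all signals (80.0), below which both probe sets of Ereg, the one of Btc and the dimmer ones of Egf and Erbb3 lie on every array.

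Among the receptors, Erbb3 changed and Egfr was not called. The detected Erbb3 probe set, 96771_at, had signals of 5498.2, 5066.1 and 5235.3 in wild type pools 1 to 3. It had 7552.4, 7004.0 and 8661.7 in LH transgenic pools 1 to 3. All 3 LH transgenic arrays lay above all 3 wild type arrays. The groups failed to overlap, in one direction or the other, on 40.4% of all tested probe sets. The mean rose from 5267 ± 218 to 7739 ± 845 (SD, n = 3), a log2 difference of 0.54, or 1.46-fold with a 95% interval of 1.20 to 1.77 (SE 0.13, limma adjusted p 0.0139). Without wild type pool 2 the difference was 0.52 and the call was lost (adjusted p 0.0529). Scaled to the bacterial controls, Erbb3 was -0.14 (95% interval -0.63 to 0.36, limma adjusted p 0.633), which is 0.48 above the median of all tested probe sets on that scale.

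The other Erbb3 probe set, 101776_at, lay far below detection, with a mean at the 4.33 percentile of all probe sets. Its signals were 18.6, 16.7 and 18.7 in the wild type pools and 29.6, 25.5 and 21.6 in the LH transgenic pools. The groups did not overlap, but every one of these signals was below 80.0, the 20th percentile of all signals on the arrays. The 2 probe sets of the gene therefore differ in whether they detect it, and the result for Erbb3 rests on 96771_at.

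Egfr, the receptor for all 6 ligands named here, was measured by 3 detected probe sets, and none was called. Its brightest probe set, 101842_g_at, had signals of 848.7, 1065.8 and 729.2 in the wild type pools. It had 888.4, 786.3 and 854.4 in the LH transgenic pools, all inside the wild type range. The log2 difference was -0.05 (95% interval -0.43 to 0.34, limma adjusted p 0.882), so that on this scale a change between 0.743-fold and 1.26-fold is not told apart from none.

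The annotation traces 101841_at to the same source sequence as 101842_g_at, so the pair is not independent. Probe set 101841_at had 234.6, 528.7 and 374.1 in the wild type pools and 314.6, 426.1 and 429.3 in the LH transgenic pools. The third, 101840_at, had 427.7, 355.4 and 248.1 in the wild type pools and 384.1, 255.8 and 360.2 in the LH transgenic pools. Its mean over the 6 arrays, 338.6, is just above the detection limit. Groups overlapped on both probe sets, whose log2 differences were 0.08 (95% interval -0.53 to 0.68, limma adjusted p 0.876) and -0.03 (95% interval -0.58 to 0.53, limma adjusted p 0.954). The probe sets did not order the pools alike: wild type pool 2 was highest of all 6 arrays on 101841_at and 101842_g_at, and wild type pool 1 on 101840_at. Scaled to the bacterial controls, 101842_g_at was called lower (-0.67, limma adjusted p 0.0297), 0.05 below the median of all probe sets on that scale.

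**Figure D2:**
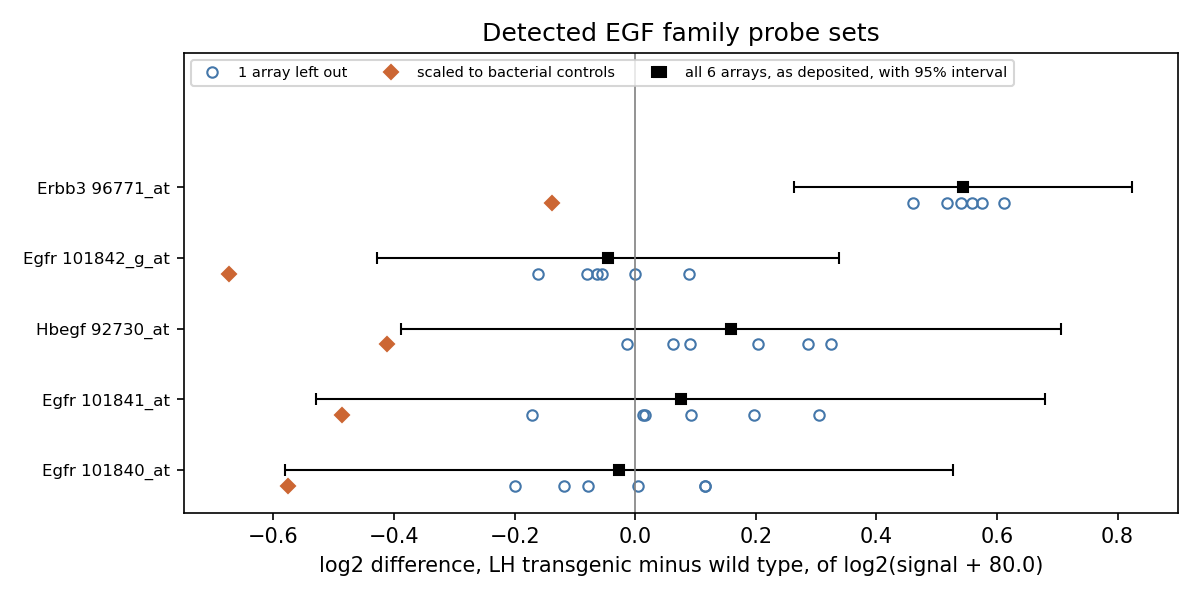
Log2 difference, LH transgenic minus wild type, for the 5 detected probe sets; squares with bars are the fit to all 6 arrays with its 95% interval, open circles leave out 1 array, and diamonds use the bacterial control scale. The interval of Erbb3 (0.26 to 0.82) lies above 0, while those of the 3 Egfr probe sets and of Hbegf span 0. On the bacterial control scale all 5 values lie below 0, as does the median of all tested probe sets (-0.62).

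Among the ligands, Hbegf, heparin-binding EGF-like growth factor, was the one detected. Its probe set 92730_at had signals of 382.7, 438.9 and 262.4 in the wild type pools and 305.8, 475.3 and 454.0 in the LH transgenic pools. LH transgenic pools 2 and 3 lay above every wild type pool, whereas pool 1 lay within their range. The means were 361.3 ± 90.2 and 411.7 ± 92.3 (SD, n = 3), a log2 difference of 0.16 (95% interval -0.39 to 0.71), and Hbegf was not called (limma adjusted p 0.689). Scaled to the bacterial controls its difference was -0.41 (limma adjusted p 0.262), which is 0.21 above the median of all tested probe sets on that scale.

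Egf, the ligand that gives the family its name, had signals below the detection limit on all 6 arrays. Its brighter probe set, 102774_at, had 150.9, 67.3 and 198.9 in the wild type pools and 235.7, 148.7 and 294.2 in the LH transgenic pools. LH transgenic pools 1 and 3 were above the wild type range and pool 2 was within it. When the fit was run without a filter, the log2 difference was 0.50 (95% interval -0.19 to 1.19, limma adjusted p 0.343). The second probe set, 161460_r_at, stayed between 16.0 and 72.1 on the 6 arrays and did not separate the groups.

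Tgfa, a ligand made by many epithelia, had 151.9, 82.4 and 100.5 in the wild type pools and 108.2, 45.6 and 84.8 in the LH transgenic pools on 92369_at. The groups overlapped, and the fit without a filter gave a log2 difference of -0.27 (95% interval -0.78 to 0.24, limma adjusted p 0.506).

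Btc (betacellulin) and Ereg (epiregulin) lie beside Areg in the mouse genome: in the gene annotation of GRCm38.p6, 0 protein-coding genes separate Ereg from Areg, and 0 separate Areg from Btc. The Btc probe set 95310_at had 6.9, 5.5 and 7.0 in the wild type pools and 9.9, 10.8 and 14.7 in the LH transgenic pools. Ereg had 2.7, 2.3 and 2.3 against 3.5, 7.3 and 18.0 on 161158_f_at, and 46.6, 12.6 and 11.0 against 8.4, 18.1 and 4.2 on 98802_at. The groups did not overlap on 95310_at and 161158_f_at, and they did on 98802_at, where the LH transgenic mean was the lower one. Of the 7 undetected member probe sets 3 had no overlap between groups, all higher in LH transgenic glands, where 17.9% of all probe sets below the filter had none (10.0% higher in LH transgenic glands). These 3 were the ones of Btc, Ereg (161158_f_at) and Erbb3 (101776_at), with means at or below the 4.33 percentile of all probe sets, and none was called in the fit without a filter (limma adjusted p 0.637, 0.539 and 0.597). In that fit 1 of the 12 member probe sets was called, that of Erbb3 again, against 10.8% of all 12422 probe sets.

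The rise of Erbb3 went along with shifts in cell type markers, each marker gene taken by its brightest probe set. Beside the counts that follow, 21.6% of all 5731 genes tested were called (9.93% higher and 11.6% lower). In RNA of whole glands, fewer cells of a type and less RNA per cell cannot be told apart. Erbb3 in the 3 LH transgenic pools stood at 1.43, 1.33 and 1.64 times the wild type mean. The summed signal of 12 luminal epithelial genes stood at 1.59, 1.63 and 1.39 times its wild type mean, from 77558 to 83635 in wild type pools and from 111542 to 131346 in LH transgenic pools. LH transgenic pool 3 was thus the highest for Erbb3 and the lowest of its group for the luminal sum. Without Elf5, a bright alveolar transcription factor gene left out after the values were seen, the sum stood at 1.51, 1.54 and 1.11 times its wild type mean, and pool 3 (72798) was then close to wild type pool 3 (69092). Of the 11 tested luminal genes 5 rose and 0 fell, with a median log2 difference of 0.56 and a range of -0.02 to 1.51. Krt18, a keratin of luminal cells, had 0.04 (adjusted p 0.87) and Epcam 0.19 (adjusted p 0.347), whereas the claudin genes Cldn7 (0.67) and Cldn3 (0.79) rose. The part of luminal content in the Erbb3 difference was not tested.

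Of 5 tested markers of hormone-sensing luminal cells, the source of Areg in the gland, 3 fell and 0 rose, with log2 differences from -2.64 to 0.40, the last being that of Tnfsf11 (not called). Prom1, among those that fell, had an LH transgenic mean (298.7) below the filter, which it passed through its wild type signals. It was called in the fit without a filter too (limma adjusted p 0.00522). The summed signal of the 7 measured genes of this list lay between 11614 and 15147 in wild type pools and between 4861 and 6215 in LH transgenic pools. Cited1 alone gave 7779.1, 4773.2 and 8024.5 of it in wild type pools 1 to 3. In LH transgenic pools 1 to 3 it gave 1228.9, 960.9 and 866.2, so the fall of the sum leans on this gene. Esr1 and Pgr lay below the filter, and in the fit without one they had 0.61 and 0.26 (limma adjusted p 0.319 and 0.739). Among stromal lists, 8 of 9 adipocyte genes, 7 of 9 endothelial genes and 5 of 8 fibroblast genes fell, and 0 of each rose. Dimmer tested probe sets of Lep, Emcn, Tie1, Col1a1 and Col3a1 (102990_at) were called lower too. Those of Lpl (160083_at, 0.29), Col1a2 (161156_r_at, 0.04) and Col3a1 (161984_f_at, -0.30) were not called (limma adjusted p 0.192, 0.887 and 0.292). The adipocyte sum fell from between 152538 and 174514 to between 75068 and 82169, the endothelial sum from between 32042 and 37639 to between 14698 and 17577, and the fibroblast sum from between 105927 and 143924 to between 74795 and 99177. The 3 Egfr probe sets, in contrast, had overlapping groups, and the part of cell content in their values was not tested. Macrophage genes rose in 4 of 8 tested, with sums of 28204 to 44802 against 55953 to 65738. Of 6 tested basal and myoepithelial genes 1 rose and 0 fell, with sums of 26211 to 32368 and 34546 to 36669. The probe sets of Krt17, a keratin gene of this list, disagreed: the brightest had -0.33 and was not called, while 161496_r_at was called higher (0.93, limma adjusted p 0.00892) and 92861_i_at lower (-1.37, limma adjusted p 0.020). The LH transgenic mean of 92861_i_at (218.6) lay below the filter, which it passed through its wild type signals. Skeletal muscle genes fell in 4 of 8 tested, and their sum was 86889 to 98881 against 18742 to 78241, the highest value being that of pool 3.

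**Figure D3:**
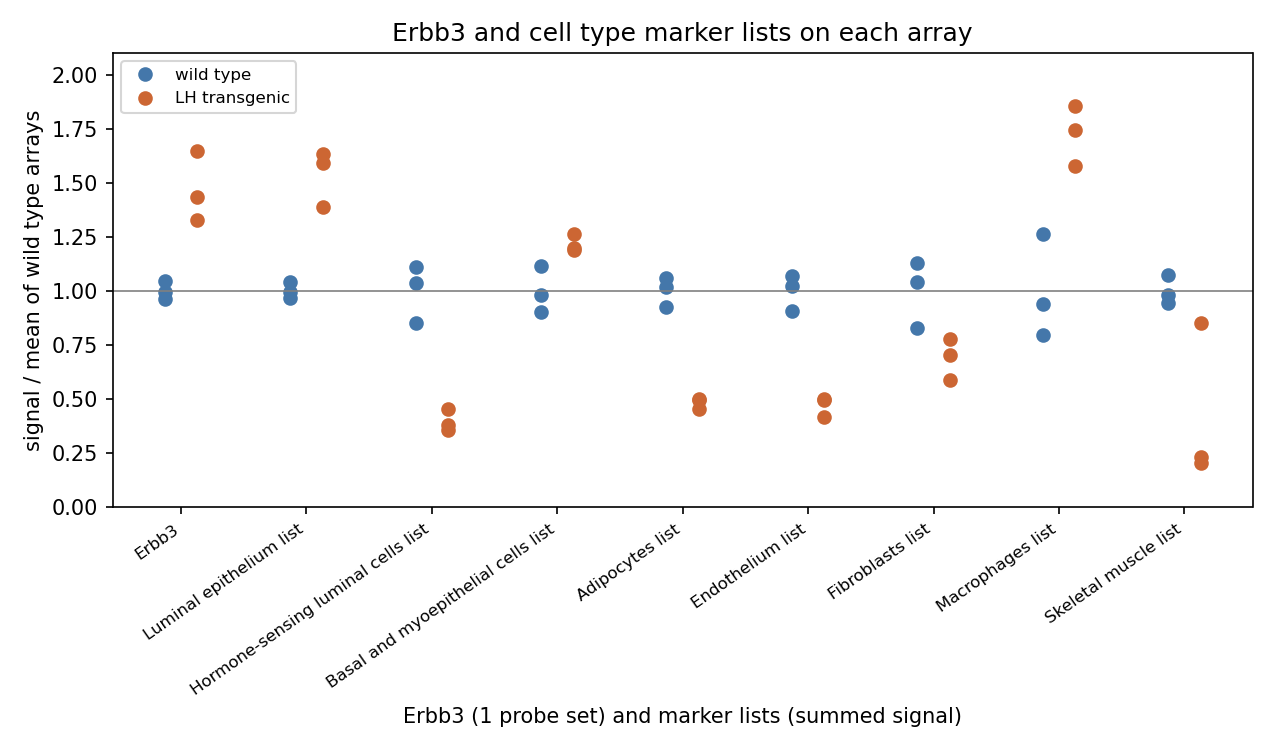
Signal of Erbb3 (96771_at) and summed signal of each cell type marker list on every array, divided by the mean of the 3 wild type arrays; points are arrays. Erbb3 (1.33 to 1.64 in LH transgenic pools) and the luminal list (1.39 to 1.63) are above 1, and the adipocyte, endothelial and hormone-sensing lists are below 0.5 on every LH transgenic array.

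The genes whose log2 values followed Erbb3 most closely over the 6 arrays, of 5730 other genes tested, were Atp6ap2 (Pearson r 0.997), Vdac2 (0.992) and Cetn3 (0.991). Atp6ap2, an accessory protein of the vacuolar proton pump, went from 1307 ± 62.0 in the wild type group to 2162 ± 383 in the LH transgenic group (SD, n = 3). Vdac2 is a channel of the outer mitochondrial membrane and Cetn3 a centrin of the centrosome. All 3 genes were called higher (log2 0.68, 0.54 and 0.46). With 6 arrays in 2 groups, such a correlation holds the difference between groups, shares the scaling of each array, and was picked as the highest of many, so it is a description only.

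Of the other receptors and ligands of the family, Erbb4 and Nrg3 had a probe set, and neither was detected. Erbb4, a receptor for neuregulins with a role in lactation, had 29.1, 29.3 and 25.3 in the wild type pools and 76.0, 51.8 and 43.2 in the LH transgenic pools, without overlap and below 80.0 on every array. Of all probe sets below the filter 17.9% had no overlap (10.0% higher in LH transgenic glands). Erbb4 was not called in the fit without a filter (limma adjusted p 0.175). Nrg3, a neuregulin, ranged from 8.0 to 57.9 among wild type pools and from 15.6 to 35.6 among LH transgenic pools.

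Downstream and upstream of the receptors, a list of 87 genes of ErbB signalling had 64 genes with a probe set and 50 that were tested, each by its brightest probe set. Of these 2 rose and 5 fell (14.0%, against 21.6% of all genes tested). The median log2 difference of the list was -0.00207, against 0.00934 for all genes tested. The share called was thus below that of all genes, and the account that follows goes by role.

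Of 5 tested genes of ligand release 3 fell and 0 rose. Adam15, a membrane metalloprotease, had 1561.4, 1565.3 and 1682.5 in the wild type pools and 937.2, 795.2 and 603.8 in the LH transgenic pools, and fell by 0.99 on the log2 scale (SE 0.17, limma adjusted p 0.0040). Timp3, which inhibits such proteases, had 7568.2, 7922.5 and 8815.4 against 3676.9, 3492.2 and 5691.8, and fell by 0.94 (SE 0.18, limma adjusted p 0.00713). Neither gene's groups overlapped, as was so for 40.4% of all tested probe sets. A protease and an inhibitor of proteases were thus both called lower. Adam12 had 563.2, 430.4 and 555.8 against 394.0, 153.6 and 96.2, a log2 difference of -1.14 (SE 0.35, limma adjusted p 0.0434). Its LH transgenic mean lay below the filter, and 8 of 16 other settings took its call away, among them the fit without each wild type pool (adjusted p 0.126, 0.0699 and 0.125 without pools 1, 2 and 3) and without LH transgenic pool 2 or 3 (0.108 and 0.098). Adam10 (-0.07) and Adam9 (-0.13) were not called, and Adam17, the main protease for several ligands of Egfr, was below detection on average (125.0 to 329.6 on the 6 arrays). A dimmer Adam10 probe set, 100751_at, had 0.24 and was not called either (limma adjusted p 0.545). Which cells of the gland made the 3 genes that fell was not measured. The adipocyte, endothelial and fibroblast lists were lower and the macrophage list was higher, and the part of cell content was not tested.

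Among adaptors and proximal enzymes, 2 of 12 tested genes rose and 0 fell. Src, a tyrosine kinase that acts with these receptors, had 181.0, 224.2 and 206.3 in the wild type pools and 974.3, 499.5 and 576.2 in the LH transgenic pools. Its log2 difference was 1.38 (SE 0.26, limma adjusted p 0.00533), but it passed the filter through the LH transgenic arrays only. In the fit without a filter Src was called too (limma adjusted p 0.0150). Stat5a, a transcription factor used by ErbB4 and the prolactin receptor, had 9672.8, 9920.9 and 9555.7 against 12152.3, 12533.1 and 14116.4, a log2 difference of 0.41 (SE 0.11, limma adjusted p 0.0310). A second Stat5a probe set, 100423_f_at, had 0.77 and was called too, but whether it is independent of the first was not tested. The Stat5a call was lost without any 1 of the 6 arrays (adjusted p 0.0512 to 0.0942), and the difference was -0.28 on the bacterial control scale. The adaptor genes Grb2 (-0.01), Gab1 (0.09) and Shc1 (-0.24) were not called. Dimmer probe sets of Gab1 (93902_at, -0.41) and Shc1 (93713_at, 0.19) had the opposite sign and were not called either (limma adjusted p 0.257 and 0.769).

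Of 6 tested genes of Ras and the MAP kinases none was called by limma, and the one with the smallest p was Nras (0.36, adjusted p 0.131), with an unadjusted p of 0.0437 as the single one of the 6 under 0.05. A second Nras probe set, 160925_at, had -0.22 and was not called (limma adjusted p 0.381). Among 7 genes of PI3 kinase and Akt 1 fell and 0 rose. Akt2, the Akt kinase of insulin-responsive tissues such as fat and muscle, had 5537.1, 5925.5 and 5947.2 in the wild type pools and 2224.3, 2740.8 and 1644.1 in the LH transgenic pools. It fell by 1.39 on the log2 scale (SE 0.18, limma adjusted p 0.00102), while Akt1 had 0.54 and was not called (limma adjusted p 0.0676). Of 9 adipocyte genes 8 fell as well, from a summed signal of at least 152538 to at most 82169. The skeletal muscle sum stood at 0.204, 0.233 and 0.851 times its wild type mean in LH transgenic pools 1 to 3. Akt2 was lowest in pool 3, where the muscle sum was highest of that group. The part of fat or muscle cells in the Akt2 difference was not tested.

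Among 10 inhibitors and genes of receptor degradation 1 fell and 0 rose. Dusp1, a phosphatase that switches off MAP kinases, had 4307.8, 3652.4 and 3854.5 in the wild type pools and 2103.0, 1958.5 and 2494.2 in the LH transgenic pools, and fell by 0.83 (SE 0.14, limma adjusted p 0.00364). Errfi1, an inhibitor that binds the kinase domain of Egfr, had 0.14 and was not called (limma adjusted p 0.549). Its dimmer probe set, 93974_at, had -0.04 and was not called either (limma adjusted p 0.878). None of 10 target genes was called by limma, and 2 of them, Egr1 and Ccnd1, had an unadjusted p under 0.05. Egr1, an immediate early transcription factor, had 2067.5, 1990.4 and 3382.9 against 1326.2, 1693.8 and 1507.4 and just missed the threshold (log2 -0.65, limma adjusted p 0.0503). It was called under 7 of 17 other settings, all with the same sign. Ccnd1, cyclin D1, had -0.45 on its brighter probe set and 0.38 on the other, both uncalled (limma adjusted p 0.0777 and 0.195).

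**Figure D4:**
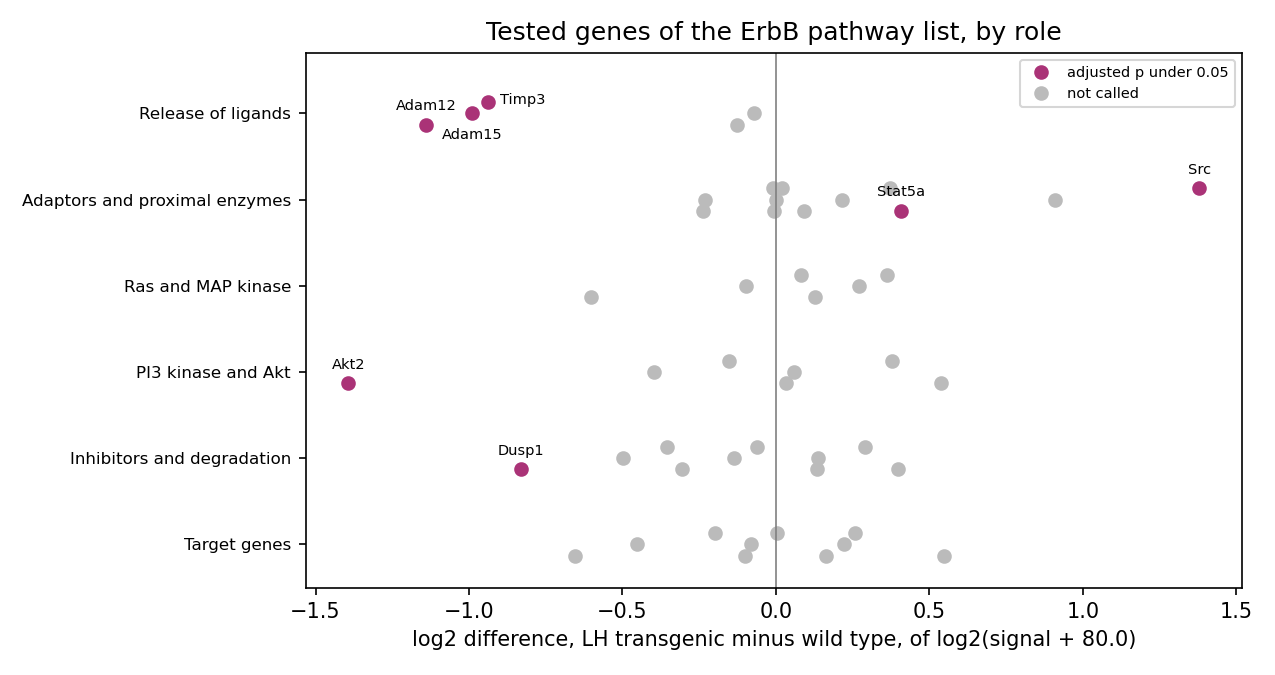
Log2 difference, LH transgenic minus wild type, of the 50 tested genes of the ErbB pathway list by role; each point is a gene, and those with an adjusted p under 0.05 are coloured and named. Of the 7 called genes, Src and Stat5a lie above 0 and Adam12, Adam15, Timp3, Akt2 and Dusp1 below, and no Ras, MAP kinase or target gene is coloured.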

How the data were processed

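The authors deposited linear intensity values, 1 for each probe set on each array, which the submitters' processing notes attribute to MAS5. Neither its version nor detection calls or a genome build are stated there. The labels' source name set the groups, and pool numbers are names only. Genes were named from probe sets with 1 annotated gene (10833), and 10817 were found by gene identifier in a GRCm38.p6 table.

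From these values log2(signal + 80.0) was computed, which understates changes of dim genes. Control probe sets (66) were left out. Probe sets with a mean of at least 336.0 were tested with limma 3.58.1 (lmFit, eBayes with a trend; R 4.3.3), two-sided, with Benjamini-Hochberg adjustment over all 7453. A check of the fit on simulated data set a bar for recovering the largest changes added. It set none for recovering smaller ones, such as that of Erbb3, or for false calls. MAS5 scales arrays to one level, so a shift of most genes would not show. Intervals cover the spread between 3 pools per group, and the number of arrays limits precision.

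All probe sets of the members were named. In the pathway list the other receptors and ligands were named, and per role up to 3 called genes by size, or the one with the smallest p. The 3 genes most like a called member were also named. Akt1, Adam9, Adam10, Adam17, Grb2, Gab1, Shc1, Errfi1, Ccnd1 and the marker genes named were chosen after their values were seen. Members and lists were chosen with earlier results of these data known. The alternatives were other scalings, pseudocounts, filters and eBayes settings, array weights, a table of genes, and leaving out each array.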

Additional observations from a re-analysis of the deposited data

How the results depend on the processing

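Erbb3 kept its direction under 16 of 17 other settings (log2 0.46 to 0.61) and its call under 15, with adjusted p from 0.00912 to 0.633 over all of them. Leaving out 1 array gave 0.46 to 0.61 for Erbb3, and 0 to 1 member probe sets called higher. Scaled to the bacterial controls, Erbb3 had -0.14, Egfr -0.49 (101841_at), Hbegf -0.41, Nras -0.32 and Stat5a -0.28. On that scale 0 member probe sets were called higher and 1 lower (Egfr 101842_g_at), 1 pathway gene higher and 27 lower, and 140 probe sets higher and 3859 lower. The values of Egfr and Hbegf changed sign when 1 array was left out, from -0.20 to 0.12 for 101840_at, -0.17 to 0.30 for 101841_at, -0.16 to 0.089 for 101842_g_at and -0.013 to 0.32 for Hbegf, and array weights gave -0.0013 for 101841_at; none of these passed the threshold. Pathway genes called higher numbered 1 with the stricter filter and with eBayes without a trend, 5 with array weights, and 1 to 3 with 1 array left out. The stricter filter (a mean of at least 933.0) left Src untested, as its mean was 443.6, so that count does not show a lost call of Src. Leaving out 1 array gave 434 to 745 probe sets called higher and 507 to 896 lower, the fewest in each direction without wild type pool 3. Where no value shows it, the cause was not tested. No paired analysis was possible because no label pairs wild type with LH transgenic pools. With 3 arrays per group the intervals of Egfr and Hbegf as deposited leave room for changes of up to about 1.6-fold, and on the bacterial control scale they reach down to a log2 difference of -1.24 for Egfr and -1.05 for Hbegf; signals below 80.0 are too dim for a fold to be given.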
